A study of Rattus norvegicus with 9 samples.

Results

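Nefl, Nefm, Nefh and Ina encode the light, medium and heavy neurofilament chains and alpha-internexin, the proteins from which neurons of the adult central nervous system build their intermediate filaments. The 4 genes were taken by name from a table of 30562 genes measured in the rat hippocampus, where each name belonged to 1 gene ID, and all 4 were among the 7073 genes with enough counts to be tested. They were chosen by name, as the subunits of one polymer, at a time when the measured decrease of Nefm in ChryM against Model was already known. Male Sprague-Dawley rats, 6 to 8 weeks old at the start and acclimatized for 1 week, fell into 3 groups with 3 RNA libraries each. ChryM rats received chrysophanol, a plant anthraquinone, by oral gavage for 14 days. Model rats were fed a high-fat diet for 4 weeks and then received 50 mg/kg of streptozotocin, which destroys pancreatic beta cells, as a single intraperitoneal dose. Those whose fasting glucose was at least 16.7 mmol/L then went through 5 weeks of chronic unpredictable mild stress. Ctrl rats were the normal controls. That the ChryM rats were model rats too follows from the series title, and neither their dose of chrysophanol nor the letter M is explained in the labels. The labels do not say which rat each library came from, so the p-values below measure the spread between these libraries, which may in part be technical. That spread was small, with a relative SD beyond counting noise of 5.50% in edgeR's common estimate. For the 4 genes the variance within a group was 0.179 (Nefh in Ctrl) to 4.91 (Nefm in ChryM) times that of counting. Whether it reflects the spread between rats was not tested.

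Neurofilaments are long polymers that fill axons, set their calibre and are themselves carried along them by slow axonal transport. The light chain forms the core, on which the medium and heavy chains and alpha-internexin co-assemble. The medium and heavy chains have long, heavily phosphorylated tails that reach out between neighbouring filaments. In development alpha-internexin and the light and medium chains come first, and the heavy chain is added as axons mature. Large projection neurons and some interneurons of the hippocampus hold the most neurofilament, and light chain shed into cerebrospinal fluid and blood is a widely used marker of axonal damage.

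Library totals ran from 631119 to 866048 counts, which is shallow for a whole transcriptome, and the median count among tested genes was 19 to 27 per library. The 4 filament genes were above that median in every library: summed over the 9 libraries, Nefm (ENSRNOG00000013916) had 5216 counts, Nefl (ENSRNOG00000013658) 4610, Nefh (ENSRNOG00000008716) 2718 and Ina (ENSRNOG00000020248) 684. All 10 general neuronal markers, such as Snap25 and Syp, were tested and abundant, and CA3 pyramidal markers had 5 of 7 and CA1 pyramidal markers 5 of 6 genes tested. Of 7 dentate granule markers 2 were tested, Tdo2 and Lct were at 0 in all libraries, and Prox1 had 6, 2 and 3 summed counts in ChryM, Model and Ctrl. The CA1 marker that was not tested, Spink8, was also at 0. The choroid plexus marker sum was 75.1 to 88.2 CPM (counts scaled to library size) in ChryM, 26.9 to 44.0 CPM in Model and 1743 to 1804 CPM in Ctrl. The myelin marker sum was 15085 to 16494 CPM in ChryM, 8517 to 9443 CPM in Model and 15591 to 16748 CPM in Ctrl. Sums of meningeal and fibroblast markers (143 to 196, 103 to 120 and 336 to 355 CPM in ChryM, Model and Ctrl) and of red blood cell markers (99.0 to 107, 65.1 to 84.0 and 334 to 359 CPM) were likewise highest in Ctrl. In bulk tissue such as this, fewer cells of a type and less RNA per cell cannot be told apart. Whether the groups differed in how much neighbouring tissue was taken with the hippocampus was not tested.

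Nefl, the core subunit, was lowest in ChryM, intermediate in Model and highest in Ctrl. Its level, as CPM scaled by TMM factors, was 575, 504 and 545 in the 3 ChryM libraries, 649, 716 and 767 in the Model libraries, and 837, 839 and 807 in the Ctrl libraries. No library of one group reached into the range of another. Nefl averaged 541 ± 35.7 CPM in ChryM, 711 ± 59.2 CPM in Model and 828 ± 17.9 CPM in Ctrl (SD, n = 3 each).

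Nefm, the medium chain, did not follow that ladder. It stood at 584, 486 and 484 CPM in ChryM, 931, 870 and 987 CPM in Model, and 914, 896 and 984 CPM in Ctrl. Model and Ctrl libraries were interleaved, while every ChryM library was below all 6 of the others. Group means were 518 ± 56.8 CPM in ChryM, 929 ± 58.9 CPM in Model and 931 ± 46.5 CPM in Ctrl (SD, n = 3 each).

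Nefh, the heavy chain, was highest in Model. It had 357, 317 and 338 CPM in ChryM, 564, 461 and 566 CPM in Model, and 368, 385 and 383 CPM in Ctrl. The lowest Model library was above the highest Ctrl library, and the highest ChryM library was just below the lowest Ctrl library. Nefh averaged 337 ± 19.8 CPM in ChryM, 530 ± 59.9 CPM in Model and 379 ± 9.31 CPM in Ctrl (SD, n = 3 each).

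Ina, alpha-internexin, showed no separation of the groups. Its values were 82.0, 85.1 and 112 CPM in ChryM, 109, 95.7 and 109 CPM in Model, and 113, 122 and 97.5 CPM in Ctrl. The 3 groups overlapped, with means of 93.1 ± 16.6 CPM in ChryM, 105 ± 7.70 CPM in Model and 111 ± 12.3 CPM in Ctrl (SD, n = 3 each). Single libraries held 56 to 101 counts of Ina, against 244 to 411 counts of Nefh, so its fold changes are the least precise of the set.

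**Figure D1:**
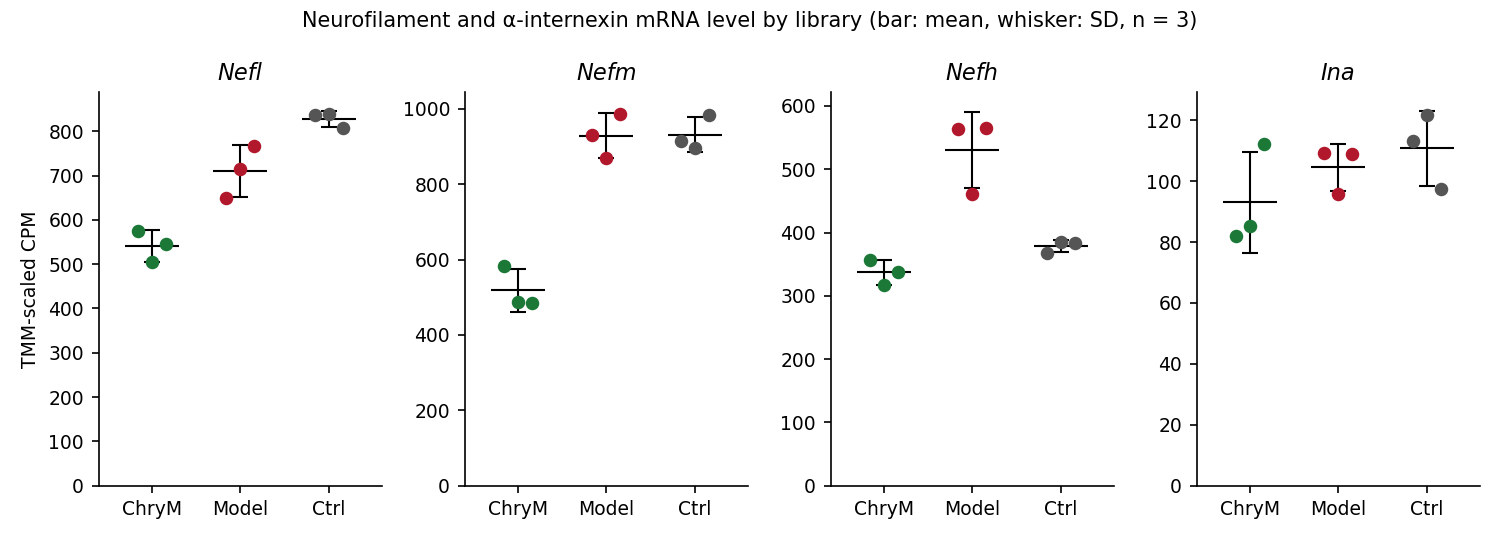
TMM-scaled CPM of Nefl, Nefm, Nefh and Ina in each library (points), with the group mean (long bar) and SD (whisker, n = 3), on linear axes that start at 0. Nefl steps up from ChryM through Model to Ctrl, Nefm is low only in ChryM, Nefh is high only in Model, and the Ina groups overlap.

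The first comparison, Model against Ctrl, sets rats of the diabetes and stress protocol beside normal ones. The filament genes split: Nefh rose in Model, Nefl fell, and Nefm and Ina did not pass the test. Of the 4, 2 passed an adjusted p under 0.05, and over all 7073 genes tested 12.4% passed, 7.04% higher and 5.39% lower. The groups did not overlap for Nefh and Nefl, as for 13.4% of all tested genes in the higher and 12.7% in the lower direction. Nefh was 1.41-fold higher in Model, a log2 fold change of 0.49 ± 0.09 (SE) with an adjusted p of 2.75e-06 by edgeR's quasi-likelihood test. Nefl was at 86.0% of its Ctrl level in Model, at -0.22 ± 0.08 (adjusted p = 0.0440). That call is at the edge of the threshold: it ended without ChryM 2, Ctrl 1, Ctrl 2, Model 1 or Model 2, with an adjusted p of up to 0.223 (without Model 1), and under other size factors, no count filter or DESeq2.

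Nefm had a log2 fold change of 0.00073 ± 0.075 between Model and Ctrl (adjusted p = 0.997), with a 95% interval of -0.15 to 0.15. Ina was at -0.09 ± 0.14 (adjusted p = 0.782). With library totals in place of TMM factors, the median log2 fold change of all tested genes moved by -0.12 in this comparison. The calls then split as 276 higher and 655 lower, against 498 higher and 381 lower with TMM. Nefh stayed above Ctrl by at least 0.365 on the log2 scale under each of the 18 alternative settings. Its adjusted p there was 0.0366 or less.

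Model libraries also differed from Ctrl in markers of other cells. All 11 myelin markers fell in Model, with a median log2 fold change of -1.12. Of 10 inhibitory interneuron markers 6 were tested, and Sst and Dlx1 rose. Of those not tested, Gad2 had 2 summed counts in Model and 15 in Ctrl. Vip had 17 and 15, Lhx6 9 and 9, and Reln 18 and 20, in the same order and not scaled. The interneuron sum was 309 to 365 CPM in Model and 270 to 284 CPM in Ctrl. Of 10 markers of subiculum and neighbouring cortex 5 were tested, Tbr1 and Fezf2 fell, and the sum was 96.9 to 106 CPM in Model and 136 to 163 CPM in Ctrl. Both tested dentate markers fell, with a list sum of 33.6 to 39.6 CPM in Model and 57.3 to 75.5 CPM in Ctrl. Of the 5 tested CA1 markers 1 fell and 0 rose, and their sum, 282 to 329 CPM in Model and 346 to 400 CPM in Ctrl, did not overlap. Of 8 astrocyte markers 2 fell, with a sum of 657 to 696 CPM in Model and 795 to 858 CPM in Ctrl. The CA3 sum overlapped, at 1436 to 1558 CPM in Model and 1529 to 1669 CPM in Ctrl, with 1 of 5 genes higher. The general neuronal sum overlapped, at 4153 to 4435 CPM in Model and 4039 to 4580 CPM in Ctrl, with 2 of 10 genes higher and 2 lower. All tested markers of choroid plexus (3), meninges (2) and red blood cells (2) fell, with medians of -4.18, -2.21 and -2.03. Of 9 thalamus and habenula markers 0 were tested. Their sum was 17.3 to 28.2 CPM in ChryM, 37.5 to 54.5 CPM in Model and 23.5 to 49.5 CPM in Ctrl. Of 8 endothelial markers 1 was tested, Flt1, which did not pass here and fell in ChryM against Ctrl. The endothelial sum was 23.3 to 34.6 CPM in ChryM, 45.4 to 47.9 CPM in Model and 52.3 to 71.8 CPM in Ctrl. The part of these cell types in the Nefh and Nefl values was not tested.

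The second comparison, ChryM against Model, sets the chrysophanol group beside the untreated model. All 3 neurofilament chains were lower in ChryM than in Model. In Nefl and Nefh the groups did not overlap, as was so in that direction for 11.7% of all tested genes. The groups did not overlap in Nefm either, which is not counted beside that share. The decrease of Nefm was known before the 4 genes were grouped and is given as a description: ChryM had 55.7% of the Model level, a log2 fold change of -0.84 ± 0.08. Of the other 3 genes, Nefh and Nefl passed the test, and over all tested genes 8.27% passed in either direction and 4.41% were lower. Nefh was at 63.3% of its Model level, at -0.66 ± 0.09 (adjusted p = 3.65e-10, edgeR). Nefl was at 76.0%, at -0.40 ± 0.08 (adjusted p = 0.000109). Both calls held under all 18 alternatives, with adjusted p of up to 0.0031 for Nefh and 0.0215 for Nefl.

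Ina was at -0.18 ± 0.15 in ChryM against Model (adjusted p = 0.554). Its 95% interval, -0.47 to 0.11, includes a decrease as large as that of Nefl. With library totals the calls of this comparison split as 373 higher and 252 lower, against 273 and 312 with TMM, and the 3 neurofilament chains stayed lower. Some general neuronal markers were lower in ChryM as well: of the 10, Snap25, Eno2, Elavl2, Syp and Nsf fell, Camk2b rose, and the summed level was 3905 to 4094 CPM in ChryM against 4153 to 4435 CPM in Model. Both tested dentate markers rose (list sum 53.4 to 95.8 CPM in ChryM against 33.6 to 39.6 CPM in Model), and so did 1 of 5 CA1 markers (360 to 470 CPM against 282 to 329 CPM). The CA3 sums overlapped, at 1323 to 1494 CPM in ChryM and 1436 to 1558 CPM in Model. Of 6 tested microglial markers 1 fell, and the sum was 132 to 148 CPM in ChryM against 185 to 198 CPM in Model. Of the 11 myelin markers 7 rose, while the interneuron sum was 268 to 289 CPM in ChryM against 309 to 365 CPM in Model, with 0 of its 6 tested genes passing in edgeR, DESeq2 or limma (1, Sst, at an unadjusted p under 0.05). The share of these shifts in the neurofilament values was not tested.

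The third comparison, ChryM against Ctrl, sets treated rats beside normal ones. Nefm and Nefl fell below their Ctrl levels, and Nefh and Ina did not pass the test. Of all tested genes 18.8% passed here, and 8.96% were lower. Nefm was at 55.7% of its Ctrl level, at -0.84 ± 0.08 (adjusted p = 5.92e-19, edgeR). That value uses the same ChryM libraries as the decrease known beforehand, and Nefm in Model and Ctrl did not differ beyond their spread. It is thus not a separate result and is not counted beside those shares. Nefl was at 65.3%, at -0.61 ± 0.08 (adjusted p = 2.60e-11). Nefh was at 89.0%, at -0.17 ± 0.09 (adjusted p = 0.197), although its 3 ChryM libraries were all below the 3 Ctrl libraries, which 15.8% of all tested genes also were. Ina was at -0.27 ± 0.14 (adjusted p = 0.181). The Nefh value passed with library totals, at -0.23 (adjusted p = 0.0339), a scaling under which all calls split as 520 higher and 819 lower, against 695 and 634 with TMM.

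Markers of other cells differed between ChryM and Ctrl too. All 3 tested choroid plexus markers fell, with a median log2 fold change of -4.43. Of the 11 myelin markers 6 fell and 1 rose, with overlapping sums. Of 8 astrocyte markers 3 fell, with a sum of 630 to 677 CPM in ChryM and 795 to 858 CPM in Ctrl. Of 5 tested markers of subiculum and neighbouring cortex 2 fell, and the sum was 93.1 to 117 CPM in ChryM and 136 to 163 CPM in Ctrl. Of 6 tested microglial markers 1 fell, with a sum of 132 to 148 CPM in ChryM and 182 to 206 CPM in Ctrl. Of the 10 general neuronal markers 3 fell and 1 rose, and the sum overlapped, at 3905 to 4094 CPM in ChryM and 4039 to 4580 CPM in Ctrl. The CA3 sum was 1323 to 1494 CPM in ChryM and 1529 to 1669 CPM in Ctrl, with 1 of 5 tested genes lower and 1 higher. The part of these cell types in the Nefm and Nefl values was not tested.

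**Figure D2:**
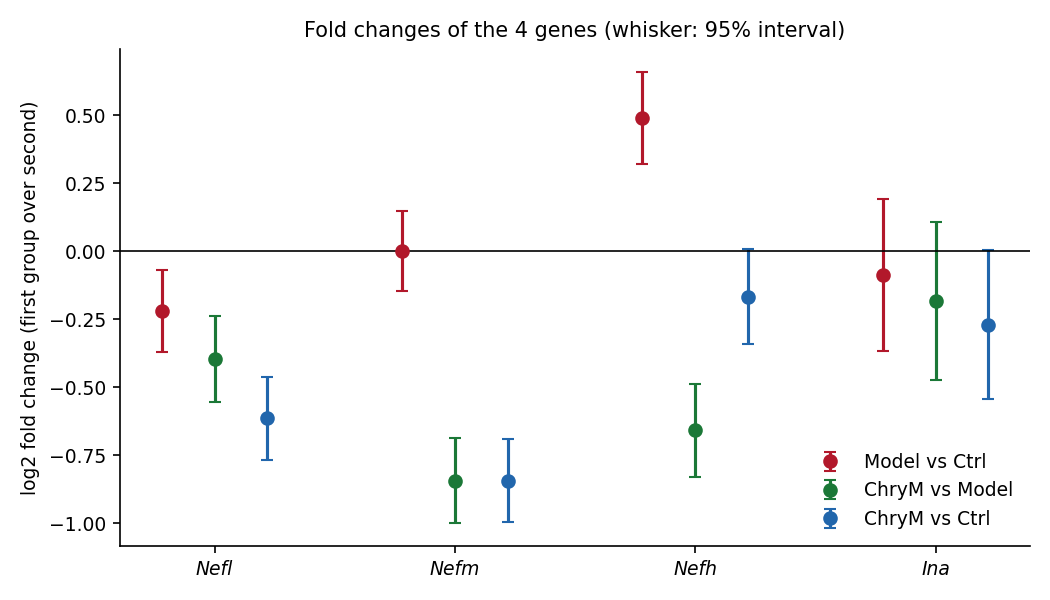
Log2 fold change of each gene in the 3 comparisons (points), with the 95% interval of the edgeR fit (whiskers). In Model against Ctrl Nefh is at 0.49, Nefm near 0 and Nefl at -0.22, and the Nefm value of ChryM against Model is a description.

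The 3 comparisons share libraries, since Model serves in 2 of them and so do ChryM and Ctrl, and their fold changes are not independent. Ordered by level, Nefl ran ChryM, Model, Ctrl. Nefm ran ChryM, then Model and Ctrl, which did not differ beyond their spread. Nefh ran ChryM, Ctrl, Model, with ChryM and Ctrl too close for the test. No order can be given for Ina.

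Filament assembly depends on the balance of the chains, so their levels were also compared with each other within each library. Levels of different genes can be set side by side only per length, and for this the deposited FPKM (read counts per gene length and library total) were used. By FPKM the order in all 9 libraries was Nefl, Nefm, Nefh, Ina. The 4 together summed to 534 ± 35.5 FPKM in ChryM, 767 ± 52.7 FPKM in Model and 850 ± 21.8 FPKM in Ctrl (SD, n = 3 each). The ChryM libraries had 574, 510 and 516 FPKM, the Model libraries 746, 728 and 827 FPKM, and the Ctrl libraries 859, 866 and 825 FPKM, so only Model and Ctrl overlapped, at Model 3 and Ctrl 3.

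Nefh made up 15.9 ± 0.186% of that sum in ChryM, 16.7 ± 1.49% in Model and 11.7 ± 0.253% in Ctrl (SD, n = 3 each). The heavy chain thus held a larger share of filament mRNA in every library of ChryM and Model than in any Ctrl library. In ChryM the level of Nefh itself was not raised, at 84.8 FPKM against 99.1 FPKM in Ctrl. Nefl and Nefm were lower in ChryM than in Ctrl. Nefm held 30.6 ± 1.70% in ChryM, 36.9 ± 0.872% in Model and 36.0 ± 1.65% in Ctrl. Nefl held 48.4 ± 0.565% in ChryM, 42.5 ± 2.57% in Model and 48.3 ± 1.249% in Ctrl. Ina held 5.10 ± 0.997% in ChryM, 3.83 ± 0.232% in Model and 3.96 ± 0.452% in Ctrl.

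**Figure D3:**
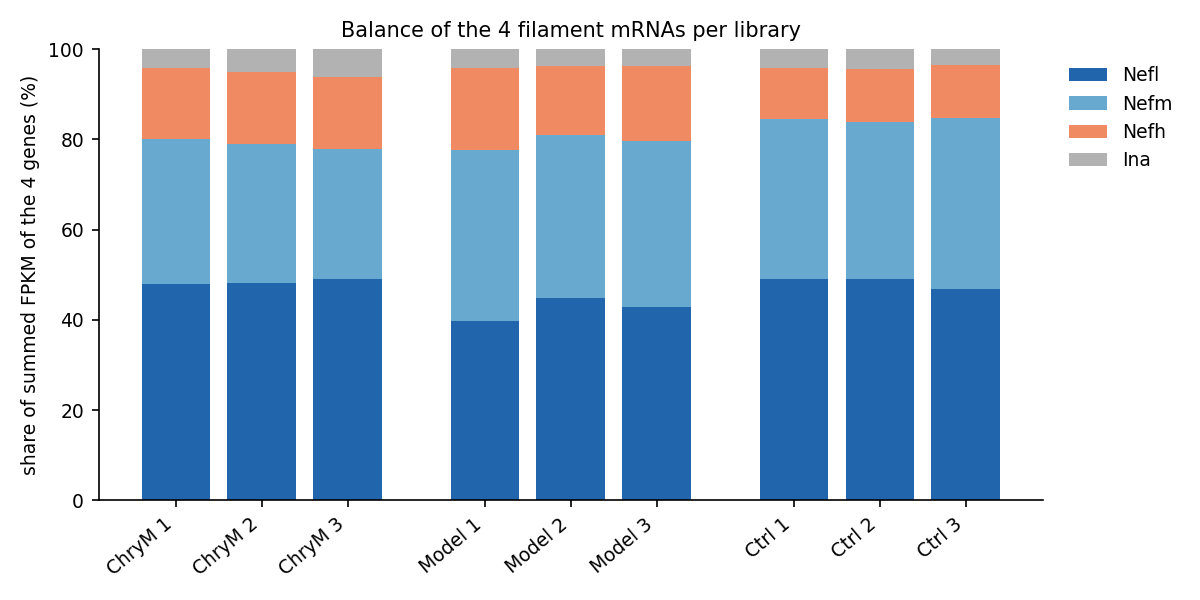
Share of each gene in the summed FPKM of Nefl, Nefm, Nefh and Ina, one stacked bar per library, in percent. The Nefh band is wider in all ChryM and Model libraries than in the Ctrl libraries, and the Nefm band is narrowest in ChryM.

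The ratio of Nefh to Nefl gave the clearest separation. It was 0.327, 0.332 and 0.327 in ChryM, 0.459, 0.340 and 0.389 in Model, and 0.232, 0.242 and 0.250 in Ctrl. On the log2 scale the ratio was higher by 0.70 in Model than in Ctrl and by 0.45 in ChryM than in Ctrl, and it was -0.26 in ChryM against Model. None of these 3 pairs of groups overlapped, and each gave a two-sided exact permutation p of 0.1, the smallest that 3 libraries against 3 allow. Adjusted over the 8 ratio tests that p was 0.2, so no ratio could pass a threshold of 0.05. Without Model 1 the ChryM against Model difference shrank to -0.15.

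The ratio of Nefm to Nefl was 0.673, 0.640 and 0.589 in ChryM, 0.951, 0.806 and 0.854 in Model, and 0.724, 0.708 and 0.808 in Ctrl. Model and Ctrl overlapped narrowly, and their log2 difference of 0.22 had an exact permutation p of 0.2 (adjusted p = 0.229). ChryM was below Ctrl by a log2 difference of -0.24 (exact permutation p = 0.1, adjusted p = 0.2). The difference of ChryM from Model, -0.46, uses the Nefm contrast known beforehand and is a description. The difference of ChryM from Ctrl uses the same ChryM libraries and is not separate from it. The ratio of Ina to Nefl ran from 0.0871 to 0.126 in ChryM, 0.0816 to 0.103 in Model and 0.0738 to 0.0886 in Ctrl, and all groups overlapped.

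Across the 9 libraries the log2 levels of Nefl and Nefm had a Pearson correlation of 0.902, those of Nefm and Nefh 0.693, those of Nefl and Ina 0.582, and those of Nefl and Nefh 0.379. These correlations describe 9 libraries that share their group differences. In the RefSeq annotation of GRCr8, Nefl and Nefm are neighbouring protein-coding genes on chromosome 15, with a pseudogene between them, while Nefh is on chromosome 14 and Ina on chromosome 1. Nefl and Nefh overlap no other annotated gene. Ina overlaps Nt5c2 and Nefm overlaps LOC134482139, and whether reads were counted by strand is not given in the sources used here, so reads of those pairs may be shared.

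Among 2192 named genes with a mean of at least 50 CPM, those whose log2 CPM over the 9 libraries was most like Nefl included Dnajc6, the clathrin-uncoating protein auxilin (r = 0.956), Myh10, a non-muscle myosin (r = 0.946, overlapping Ndel1), and Cldn9, a claudin (r = 0.934). Closest to Nefm were Zfp42l (r = 0.964, overlapping Clstn3), Crym, which binds thyroid hormone (r = 0.959), Nt5c2 (r = 0.957) and Gak, a kinase related to auxilin (r = 0.955). Closest to Nefh were Pced1b (r = 0.965, overlapping Amigo2), Dnm1, the neuronal dynamin (r = 0.950), Basp1, a growth cone membrane protein (r = 0.948), and Peg3 (r = 0.947, overlapping Apeg3). Pced1b had 300 ± 28.1 CPM in ChryM, 652 ± 39.0 CPM in Model and 385 ± 26.3 CPM in Ctrl (SD, n = 3 each), the order of groups seen for Nefh. For Ina the closest 4 were Tacc2 (r = 0.924), Nolc1 (r = 0.890), Fbxl16 (r = 0.879) and Dnaja4 (r = 0.866). These values, too, describe libraries that share their group differences.

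Other intermediate filament genes are carried mostly by glia, vessels and nuclear envelopes. Of 12 listed, 6 had enough counts to be tested. The counts of this list and of those after it stand beside 12.4% of all tested genes passing in Model against Ctrl, 8.27% in ChryM against Model and 18.8% in ChryM against Ctrl. Peripherin (Prph), which joins neurofilaments in peripheral neurons, had 3, 6 and 5 summed counts in ChryM, Model and Ctrl, and nestin (Nes), the filament of neural progenitors, had 14, 20 and 30. The other untested genes, Des, Bfsp1, Bfsp2 and Lmnb1, had at most 12 summed counts in a group. Of the 6 tested, 0 passed in Model against Ctrl with edgeR, limma or, for the 3 genes it gave an adjusted p, DESeq2, and 0 had an unadjusted p under 0.05. In ChryM against Model the 3 that passed were lower: Vim, vimentin, at -0.81 ± 0.26 (adjusted p = 0.0322), Gfap, the astrocyte filament, at -0.28 ± 0.09 (adjusted p = 0.0278), and Sync, syncoilin, at -0.43 ± 0.14 (adjusted p = 0.0340, overlapping Rbbp4). The list's median was -0.13, with 0.00 over all tested genes.

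Gfap had 380, 372 and 370 CPM in ChryM, 422, 466 and 472 CPM in Model, and 510, 520 and 409 CPM in Ctrl. It fell in ChryM against Ctrl at -0.36 ± 0.09 (adjusted p = 0.000535), and so did Sync at -0.37 ± 0.13 (adjusted p = 0.0389, lost without ChryM 2, ChryM 3 or Ctrl 3, up to 0.233). The Sync call was also lost without the count filter (0.131), with DESeq2 (0.164) and with limma (up to 0.0950). The 3 calls of ChryM against Model were fragile: none of them passed with library totals or without the count filter, and Gfap and Sync did not pass with limma or DESeq2, the latter of which gave no adjusted p for Vim. The Vim call ended without ChryM 1, ChryM 2, Model 2 or Model 3 (adjusted p of up to 0.189), that of Gfap without any 1 ChryM library or without Model 2 or Model 3 (up to 0.149), and that of Sync without ChryM 2, ChryM 3 or Model 2 (up to 0.303). The astrocyte marker sum was 630 to 677 CPM in ChryM, 657 to 696 CPM in Model and 795 to 858 CPM in Ctrl.

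Filaments are tied to microtubules, actin and the membrane by cross-linkers, ankyrins and spectrins. All 12 genes of this list were tested. In Model against Ctrl, Plec and Sptbn4 rose and Add1 and Add2 fell (list median 0.05, all genes -0.02). In ChryM against Ctrl, Plec and Sptbn4 rose and Ank2 and Epb41l3 fell (median -0.09, all genes -0.01). Plec, plectin, which bridges intermediate filaments to other cytoskeletal systems, had 158, 183 and 144 CPM in ChryM, 134, 144 and 161 CPM in Model, and 93.8, 100.1 and 96.1 CPM in Ctrl. Both groups stood above Ctrl without overlap, at 0.75 ± 0.13 for ChryM (adjusted p = 8.20e-07) and 0.60 ± 0.14 for Model (adjusted p = 0.000427), and Plec overlaps Parp10. Neither value passed with limma on log2(FPKM + 1), where the adjusted p was 0.0572 and 0.197. Sptbn4, the beta-spectrin of the axon initial segment and nodes, was higher in ChryM than in Ctrl by 0.57 ± 0.10 (adjusted p = 4.73e-06). Its rise in Model, 0.34 ± 0.11 (adjusted p = 0.0288), was lost under 9 of 18 alternatives, among them library totals (0.203), DESeq2 (0.0840), limma (up to 0.388) and leaving out Ctrl 1, Ctrl 2, Model 2 or Model 3 (up to 0.272). The Ank2 decrease, -0.46 ± 0.14 (adjusted p = 0.0115), was lost without ChryM 2 or Ctrl 2 (up to 0.154), with DESeq2 (0.0962) and with limma (up to 0.171). In ChryM against Model, Epb41l3 was the 1 gene of the list that passed, and it was lower. With single libraries left out, 2 to 4 genes passed in ChryM against Ctrl, 0 or 1 in ChryM against Model and 1 to 4 in Model against Ctrl.

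Microtubule proteins of axons and dendrites had 14 tested genes, and 7 passed in ChryM against Model, where 8.27% of all tested genes passed. Map1a, Map1b, Map2, Stmn3 and Tubb3 fell, and Stmn1 and Tubb4a rose (median -0.20, all genes 0.00). Map1b, which binds microtubules in growing axons, had 211, 251 and 242 CPM in ChryM, 342, 321 and 340 CPM in Model, and 285, 288 and 254 CPM in Ctrl. It was lower in ChryM than in Model by a log2 fold change of -0.51 ± 0.10 (adjusted p = 2.82e-05), while its rise in Model against Ctrl, 0.28 ± 0.10 (adjusted p = 0.0390), was lost without Ctrl 1, Ctrl 3 or any 1 Model library (up to 0.161) and with library totals (0.301). That rise was also lost without the count filter (0.0692), with DESeq2 (0.0976) and with limma (up to 0.559). Map2, the dendritic microtubule protein, was at -0.86 ± 0.22 in ChryM against Model (adjusted p = 0.00334, lost without ChryM 1 at 0.108) and at -1.05 ± 0.20 in ChryM against Ctrl (adjusted p = 1.43e-05). Tubb4a, a tubulin abundant in oligodendrocytes and neurons, fell in Model against Ctrl at -0.34 ± 0.08 (adjusted p = 0.000868). It was higher in ChryM than in Model by 0.31 ± 0.08 (adjusted p = 0.00427), as were 7 of 11 myelin markers. The part of oligodendrocytes in the Tubb4a values was not tested. In Model against Ctrl, Map1a and Map1b rose and Tubb4a fell (median -0.03), and in ChryM against Ctrl, Map2, Map6 and Tuba1a fell (median -0.14). In ChryM against Model 2 genes passed with limma on log2(FPKM + 1), where Map1b and Map2 did not (adjusted p = 0.113 for both). With single libraries left out, 4 to 7 genes passed in ChryM against Model, 1 to 3 in Model against Ctrl and 1 to 4 in ChryM against Ctrl.

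Kinesins and dynein move neurofilament subunits along axons. Of 10 tested motor genes, Kif5b and Kif3a fell in Model against Ctrl (median -0.16), Kif5a rose in ChryM against Model (median 0.09), and in ChryM against Ctrl Kif5a and Dync1h1 rose and Kif5c fell (median -0.12). Kif5a, the neuron-specific kinesin heavy chain linked to neurofilament transport, had 570, 479 and 489 CPM in ChryM, 425, 367 and 372 CPM in Model, and 448, 443 and 390 CPM in Ctrl. Its value in ChryM against Model was 0.40 ± 0.09 (adjusted p = 0.000384), opposite in sign to those of the 3 neurofilament chains. Kif5c was at -0.94 ± 0.18 in ChryM against Ctrl (adjusted p = 1.10e-05), and Kif3a at -0.95 ± 0.27 in Model against Ctrl (adjusted p = 0.00593). The Kif5a rise over Ctrl, 0.26 ± 0.08 (adjusted p = 0.0167), was lost without ChryM 1 or Ctrl 3 (up to 0.251). It was also lost with library totals (0.0649), DESeq2 (0.0691) and limma (up to 0.287). With single libraries left out, 1 motor gene passed in ChryM against Model, 1 to 3 in Model against Ctrl and 1 to 3 in ChryM against Ctrl.

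Kinases and phosphatases that act on the neurofilament tails had 16 tested genes. Of these, Camk2a fell in Model against Ctrl (median -0.14), Rock1 fell in ChryM against Model (median -0.11), and Mapk9, Camk2a and Rock2 fell in ChryM against Ctrl (median -0.23). The 3 of 16 genes that passed in ChryM against Ctrl are close to the share over all tested genes there, 18.8%. Camk2a, a calcium-activated kinase of excitatory synapses, was at -0.44 ± 0.12 in Model against Ctrl (adjusted p = 0.00568, lost without Model 2 at 0.0761) and at -0.43 ± 0.12 in ChryM against Ctrl (adjusted p = 0.00352). The Rock1 call, at an adjusted p of 0.0460, was lost without any 1 of 5 libraries (adjusted p of up to 0.247). These were ChryM 1, ChryM 3, Model 2, Model 3 and Ctrl 1. The Rock1 call was also lost with library totals (0.0711), no count filter (0.112), only the groups compared (0.0519) and limma (up to 0.139). The Rock2 call was lost without ChryM 3 or Ctrl 2 (up to 0.0780), with DESeq2 (0.0713) and with limma (up to 0.0989). Of 6 RNA-binding proteins known to bind neurofilament mRNAs, among them Tardbp and Elavl4, 0 passed in any comparison with all libraries and TMM scaling in edgeR, or with DESeq2 or limma, with medians of 0.08, -0.09 and -0.23 in Model against Ctrl, ChryM against Model and ChryM against Ctrl. At an unadjusted p under 0.05 there were 3, 1 and 0 of them, in the same order of comparisons. Elavl4 passed in ChryM against Model without ChryM 1 (-0.95, adjusted p = 0.0383) or Model 2 (-0.88, adjusted p = 0.0276), and Hnrnpk in Model against Ctrl with library totals (-0.46, adjusted p = 0.0430). DESeq2 gave no adjusted p for Elavl4 in Model against Ctrl and ChryM against Model.

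Of 9 tested genes for turnover and chaperoning of filaments, Uchl1 rose and Trim2 fell in Model against Ctrl, Cryab rose in ChryM against Model, and Uchl1 and Cryab rose and Trim2 fell in ChryM against Ctrl. Trim2, a ubiquitin ligase that in mice binds the light chain and lowers its level, had 94.6, 75.8 and 91.3 CPM in ChryM, 83.1, 76.9 and 82.6 CPM in Model, and 127, 147 and 154 CPM in Ctrl. It fell in ChryM against Ctrl at -0.71 ± 0.13 (adjusted p = 1.07e-05) and in Model against Ctrl at -0.81 ± 0.14 (adjusted p = 3.27e-06). Cryab, the small heat shock protein alpha-B crystallin, which binds intermediate filaments, had 39.1, 56.0 and 47.1 CPM in ChryM, 19.6, 13.7 and 19.3 CPM in Model, and 14.6, 21.7 and 17.0 CPM in Ctrl. It was higher in ChryM than in Model by 1.42 ± 0.28 (adjusted p = 1.83e-05) and than in Ctrl by 1.41 ± 0.26 (adjusted p = 2.29e-06), and it overlaps Hspb2. Cryab is also a gene of oligodendrocytes. Of 11 myelin markers, 7 rose in ChryM against Model, and 6 fell and 1 rose in ChryM against Ctrl. All 11 fell in Model against Ctrl, where Cryab was at -0.01 ± 0.33. The part of oligodendrocytes in the Cryab values was not tested. Uchl1, a neuronal deubiquitinase, was higher in Model than in Ctrl by 0.35 ± 0.09 (adjusted p = 0.00192), a call lost with limma (0.0572 and 0.0606). Its rise in ChryM against Ctrl (adjusted p = 0.0404) was lost under 14 of 18 alternatives. Among them was leaving out any 1 library but Ctrl 1 (up to 0.227). The list's medians were 0.15, -0.01 and 0.24 in Model against Ctrl, ChryM against Model and ChryM against Ctrl.

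Genes of large or fast-firing neurons, which are rich in neurofilament, had 10 tested members. In Model against Ctrl 1 of them rose, Sncg, and 1 fell, Kcna2, while the others did not pass. Sncg, gamma-synuclein, had 10.1, 17.5 and 13.8 CPM in ChryM, 121, 88.8 and 118 CPM in Model, and 4.87, 6.03 and 15.6 CPM in Ctrl. Like Nefh it was highest in all 3 Model libraries, at log2 fold changes of 3.67 ± 0.34 against Ctrl and -2.97 ± 0.27 in ChryM against Model. In ChryM against Ctrl it was at 0.70 ± 0.41 (adjusted p = 0.237), and it passed there without Ctrl 3, at 1.32. Kcna2, a potassium channel gene, passed narrowly in Model against Ctrl, at -0.77 ± 0.28 (adjusted p = 0.0490). That call was lost without Ctrl 1, Ctrl 2, ChryM 2, ChryM 3, Model 2 or Model 3 (adjusted p of up to 0.447). In all, 12 of 17 alternatives lost it, among them limma (up to 0.166). The list's medians were 0.13, -0.13 and -0.05 in Model against Ctrl, ChryM against Model and ChryM against Ctrl.

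Axon growth and adhesion genes had 9 tested members, of which 7 fell in ChryM against Ctrl: Gap43, Marcks, Ncam1, Dpysl2, Cntn1, Nrcam and Nfasc (median -0.48, all genes -0.01). Over all tested genes 8.96% were lower in that comparison and 4.41% in ChryM against Model. Between 5 and 8 of them passed when single libraries were left out, and 4 with DESeq2. In ChryM against Model 3 fell, Gap43, Basp1 and Dpysl2 (median -0.39, all genes 0.00), and in Model against Ctrl Basp1 rose while Dpysl2 and Nfasc fell (median -0.29). Basp1 had 1435, 1348 and 1461 CPM in ChryM, 1831, 1801 and 1917 CPM in Model, and 1562, 1590 and 1643 CPM in Ctrl, again with Model on top. It was at -0.39 ± 0.07 in ChryM against Model (adjusted p = 9.11e-06), and its rise in Model, 0.21 ± 0.07 (adjusted p = 0.0272), was lost with library totals (adjusted p = 0.298) and without Ctrl 1, Ctrl 2 or any 1 Model library (up to 0.186). With limma that rise was lost too (up to 0.224). Dpysl2, which promotes axon outgrowth, was at -0.70 ± 0.11 in ChryM against Ctrl (adjusted p = 1.33e-07). Its call in ChryM against Model (-0.39 ± 0.12, adjusted p = 0.0215) was lost without ChryM 1, ChryM 3 or Model 1 (up to 0.142). It was also lost with library totals (0.0606), no count filter (0.0719), DESeq2 (0.0819) and limma (up to 0.196). Its call in Model against Ctrl (-0.30 ± 0.11, adjusted p = 0.0498) was lost without any 1 of 6 libraries, namely ChryM 2, ChryM 3, Ctrl 2, Ctrl 3, Model 2 and Model 3 (up to 0.386). In all, 13 of 18 alternatives lost that call, among them DESeq2 (0.167). Nfasc, neurofascin of the axon initial segment and nodes, fell in Model against Ctrl at -0.80 ± 0.15 (adjusted p = 8.02e-06). Nfasc is also made by oligodendrocytes, whose 11 markers fell in the same comparison. The part of oligodendrocytes in the Nfasc value was not tested.

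**Figure D4:**
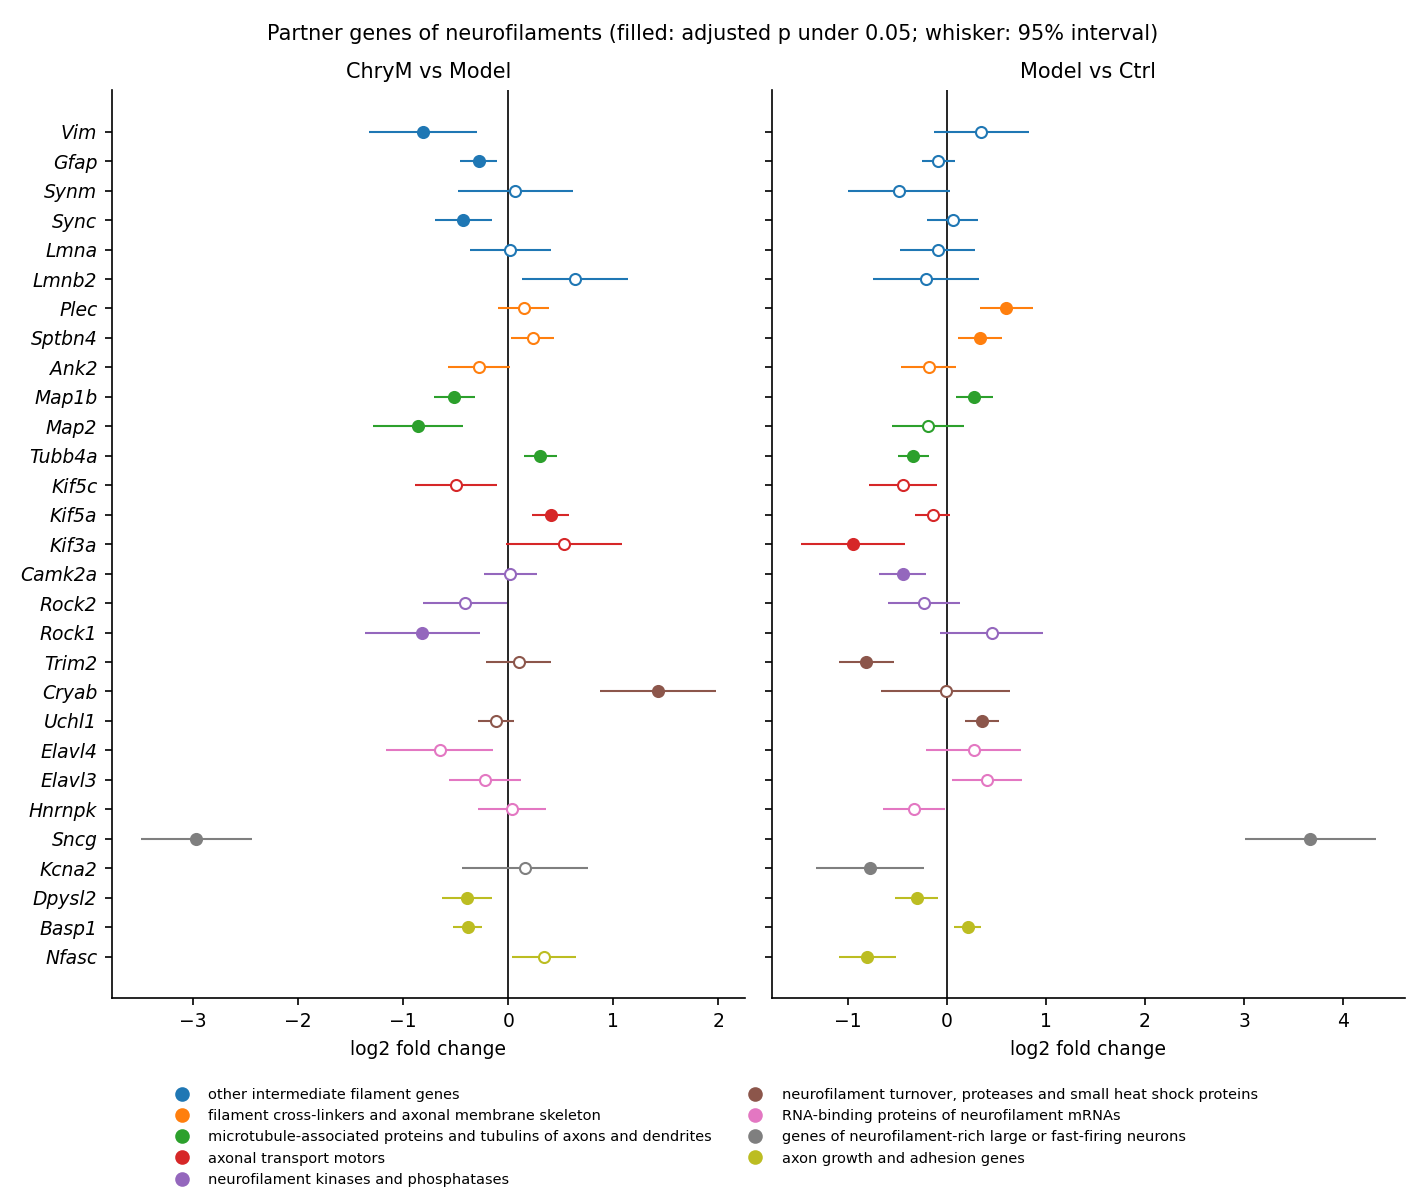
Log2 fold changes of the named partner genes, coloured by list, in ChryM against Model (left) and Model against Ctrl (right), with 95% intervals, on linear axes. Filled points have an adjusted p under 0.05. Sncg lies far from the rest in both panels, at -2.97 and 3.67.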

How the data were processed

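Directional poly(A) libraries, with the second cDNA strand marked by dUTP per the labels, were made from rat hippocampus. The authors deposited whole-number read counts per gene in one table, and a second table of FPKM with gene lengths, per the file headers. HISAT2 and DESeq2 appear, with no version, in the submitters' processing notes. How reads were counted and by which strand, and which genome build and annotation were used, is not given in the sources used here. Each deposited FPKM was the count divided by gene length and library total (100% of values, relative tolerance 1e-09), so both tables hold the same measurement. No 2 libraries held identical values.

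All 9 libraries were fitted together with edgeR 4.0.16 in R 4.3.3 (filterByExpr, TMM factors of 0.956 to 1.07, robust glmQLFit, 1 coefficient per group, no covariate). The filter kept 7073 of 30562 genes, and glmQLFTest p-values, two-sided, were adjusted over all of them by Benjamini-Hochberg. The printed SE is the larger of that of the test and that of counting. Single genes are given as TMM-scaled CPM, and marker sums as CPM of the library total. Counting precision is limited by the library totals. FPKM ratios were tested with exact permutation tests (scipy 1.17.1). The pipeline was tested on simulated data.

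The 4 genes and the lists of partner and marker genes were chosen with earlier results of these data known. Named genes are the 4 members, all tested genes of the other intermediate filament list, up to 3 genes per partner list by smallest p, and up to 4 genes per member by correlation. Others are named where they make up a list's count. Gene names were matched to RefSeq GRCr8, where 23434 of 26195 were found. Alternatives were other size factors (RLE), library totals, no or a stricter count filter, only the groups compared, a replicate block, DESeq2 1.42.0, limma 3.58.1 on log2(FPKM + 1) and log2(FPKM + 0.1), and leaving out each library. Protein and promoter sequences were not used here. Some items are withheld for evaluation and are not reported here.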

Additional observations from a re-analysis of the deposited data

How the results depend on the processing

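The calls of Nefl and Nefh in ChryM against Model, of Nefl and Nefm in ChryM against Ctrl and of Nefh in Model against Ctrl held their direction and passed under all 18 alternatives. The Nefm call shares its ChryM libraries with the contrast known beforehand. Nefl in Model against Ctrl did not pass with RLE size factors (-0.21, adjusted p = 0.0549), without a count filter (-0.20, adjusted p = 0.194) or with DESeq2 (-0.21, adjusted p = 0.0855), and ran from -0.29 to -0.17 with single libraries left out. Nefh in ChryM against Ctrl passed with library totals (-0.23, adjusted p = 0.0339). Nefm in Model against Ctrl ran from -0.12 to 0.04 and never passed. The causes were not tested.

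In Model against Ctrl, ChryM against Model and ChryM against Ctrl, 879, 585 and 1329 genes passed. These counts became 423, 301 and 621 with DESeq2, 553, 352 and 793 with limma on log2(FPKM + 1), and 521, 351 and 772 on log2(FPKM + 0.1). With single libraries left out they ran from 599 to 860, 391 to 622 and 968 to 1321. Libraries with the same replicate number did not deviate together (r from -0.0709 to 0.124 over 9 pairs, and -0.0871 to 0.117 over 18 other pairs). A replicate block gave 855, 586 and 1317 genes and changed no call of the 4 filament genes. Of 2306 values of the other 43 named genes, 185 no longer passed, 19 newly passed and 0 reversed.

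Depth limits Ina most, whose 95% interval in ChryM against Model, -0.47 to 0.11, is the widest of the 4 genes there.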
